A study of Mus musculus with 14 samples.

Results

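The proteasome subunit genes were taken as every row of the deposited gene count table whose symbol begins with Psm, then 1 of the letters a to g and a digit. This rule found 50 of 25131 rows, and 1 of them, Psmc3ip, encodes a meiotic recombination factor and no part of the proteasome. The samples were mouse embryonic stem cells (ESCs), pluripotent cells of the early embryo, on the C57BL/6 strain background. Both groups of the comparison were grown alike, on gelatin in fetal bovine serum with leukemia inhibitory factor and the kinase inhibitors PD0325901 and CHIR99021 (2i). RNA-seq was made from 2 libraries of Rcor2 knockout (KO) cells and 2 libraries of wild-type (WT) cells. RCOR2 is a corepressor related to CoREST that acts in complexes with LSD1, a histone demethylase, and with histone deacetylases. Its binding was mapped by chromatin immunoprecipitation (ChIP) with an anti-HA resin in cells expressing HA-tagged RCOR2, with WT and mCherry-expressing cells as controls, and the deposited peak list comes from merged libraries. The labels do not say how many KO clones there were, which part of Rcor2 was deleted, or that replicates were separate cultures. The p-values below are therefore set by the variation among 4 libraries, part of which may be technical.

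The proteasome is the large protease that degrades ubiquitin-tagged proteins. Its barrel-shaped core is built of alpha rings, which control entry, and beta rings, which carry the active sites, and it is closed by a cap whose base holds a ring of ATPases that unfold substrates and whose lid removes ubiquitin. Dedicated chaperones assemble core and cap, alternative activators can replace the cap, and ESCs are known for high proteasome activity.

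The libraries held 2951498 and 1974865 counts (KO replicates 1 and 2) and 2368804 and 1286393 counts (WT replicates 1 and 2). Levels are given as CPM, counts per 1e6 after TMM scaling, and are not comparable between genes of different length. Rcor2 itself was at 54.2 and 53.9 CPM in KO and at 81.4 and 81.5 CPM in WT, which gave −0.59 on the log2 scale (SE 0.23) and was not called (edgeR adjusted p = 0.0636). Reads were therefore still counted at Rcor2 in the KO libraries. The summed level of 10 ESC markers was 4806 to 4870 CPM in KO and 4173 to 4378 CPM in WT, and all 10 passed the filter on low counts. Of these, Klf4 (log2 fold change 1.30), Tfcp2l1 (0.87) and Nanog (0.48) were higher in KO and Dppa5a (−0.47) was lower (edgeR). Nanog lies on chromosome 6, which was shifted as a whole. Its value was under the median of 0.92 there, and 56.2% of tested genes on that chromosome were higher. Of the other marker lists, 7 fibroblast genes summed to 11.0 to 18.6 CPM in KO and 16.4 to 26.7 CPM in WT, 6 primitive endoderm genes to 3.14 to 7.25 and 1.69 to 5.33 CPM, and 6 neuronal genes to 11.4 to 18.8 and 33.3 to 34.3 CPM. Rbfox3 of the neuronal list was lower in KO (edgeR), at −3.22 on the log2 scale (SE 0.84). It lies on chromosome 11, where the median was −0.48. Only 2 of the 6 neuronal genes were tested, and the other, Tubb3, was at −0.13 (SE 0.49) and not called. The 6 trophoblast genes summed to 143 to 162 CPM in KO and 35.0 to 37.9 CPM in WT. Gata3, Krt8 and Krt18 made up most of that sum and were higher in KO (edgeR), whereas the counts of Cdx2, Elf5 and Hand1 did not reach the filter. Gata3, Krt8 and Krt18 and the called ESC and neuronal markers thus differed between KO and WT, in part on shifted chromosomes. Their part in the results below was not tested. Fewer cells of a type and less RNA per cell cannot be told apart in such libraries.

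KO and WT were compared with edgeR's quasi-likelihood test over 10241 genes, and a gene was called at a Benjamini-Hochberg adjusted p under 0.05. Of the 50 proteasome genes, 47 passed the filter on low counts. Among them 3 rose in KO (Psmd8, Psmb4 and Psmd4) and 9 fell (Psme4, Psmd12, Psmb3, Psme3, Psmg4, Psmc3ip, Psmb6, Psmc1 and Psmd13), and 35 were not called. That is 25.5% of the tested members, beside 19.7% of all genes tested, of which 10.4% rose and 9.30% fell. The median log2 fold change of KO over WT was −0.24 over the members, within −0.99 to 0.89, and −0.02 over all genes tested. A value under 0 was found in 36 of the 47 tested members and in 51.0% of all genes. Both KO libraries lay below both WT libraries in 24 members and above them in 6, and the groups overlapped in 17. Over all genes the KO libraries lay below in 28.8% and above in 28.1%. Without Psmc3ip the calls were 3 and 8 of 46. Of the 12 calls, 5 held under all 11 alternative analyses that made no correction for chromosomes: Psmb3, Psmb4, Psmd12, Psmd8 and Psme4. The number of members that fell was 3 without KO replicate 1, 5 without KO replicate 2, 15 without WT replicate 2 and 7 without WT replicate 1, and the number that rose was 2 or 3 in these fits. Scaling by library size alone gave 2 higher and 14 lower.

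**Figure D1:**
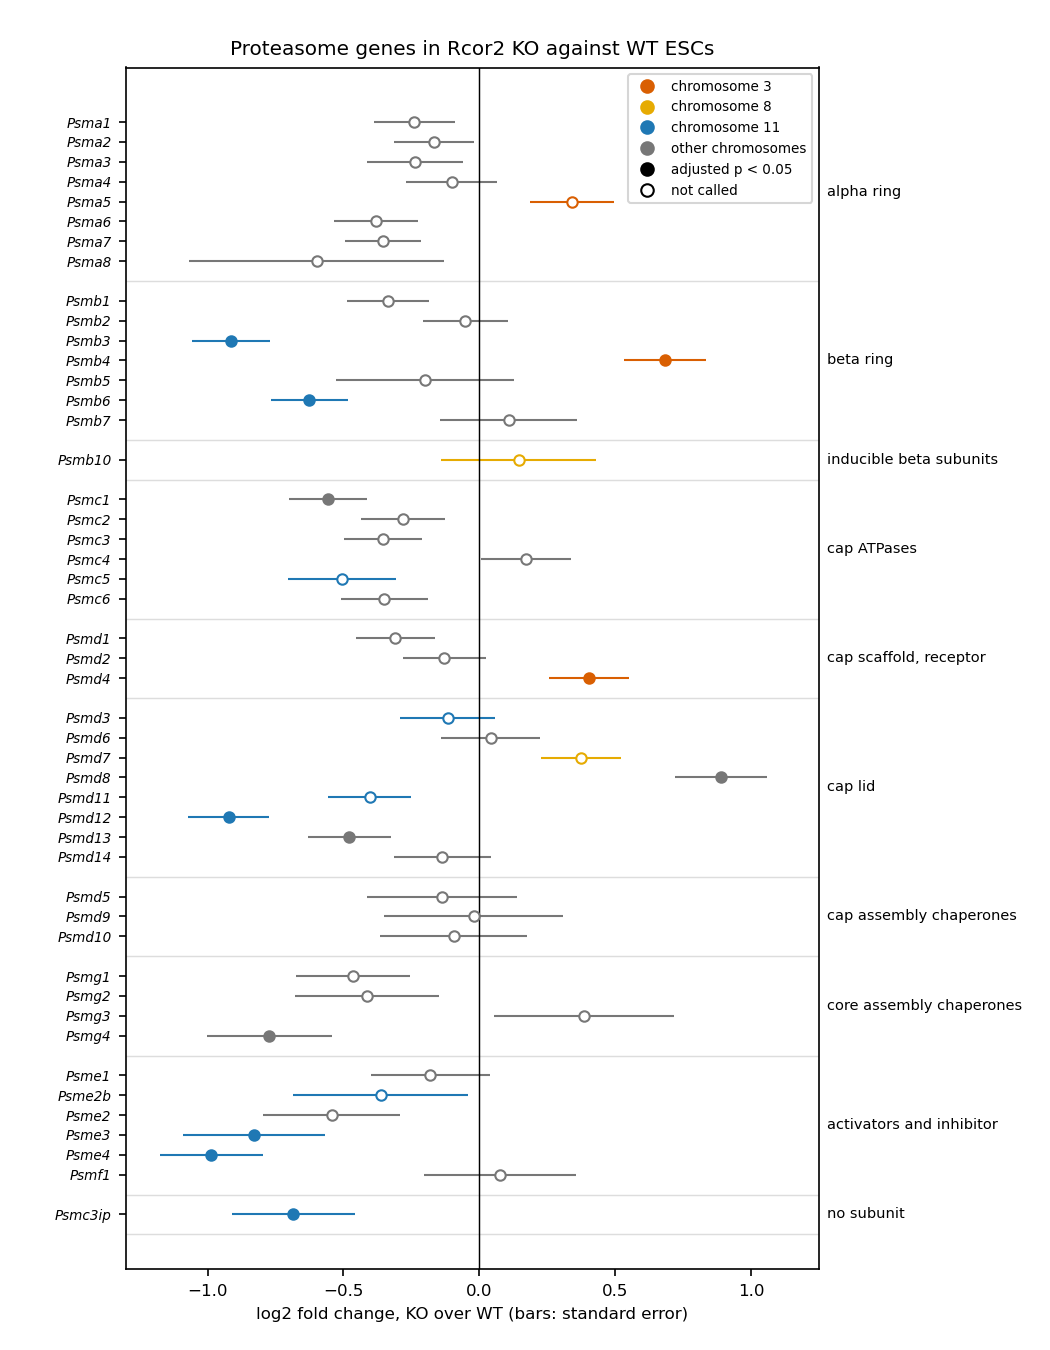
Log2 fold change of KO over WT (x axis, points) with its standard error (bars) for the 47 tested genes, grouped by role and coloured by chromosome. Filled points passed an adjusted p of 0.05, and most points lie left of 0, with Psme4 lowest at −0.99 and Psmd8 highest at 0.89.

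The 4 promoters shown are those of genes whose results stand for the rest of the text: Psmd8, the member with the highest fold change, Psmb4, which rose on a chromosome with a general shift, Psmd12, which fell on another, and Psmc1, which fell on neither. The sequences are the 250 bases before the start site on the strand of the gene, from RefSeq on build GRCm38.p6, with matches to the motifs searched in capitals. Psmd8 lies at chr7:29180674-29180923 on the minus strand, Psmb4 at chr3:94886959-94887208 on the minus strand, Psmd12 at chr11:107479278-107479527 on the plus strand and Psmc1 at chr12:100109952-100110201 on the plus strand.
Psmd8: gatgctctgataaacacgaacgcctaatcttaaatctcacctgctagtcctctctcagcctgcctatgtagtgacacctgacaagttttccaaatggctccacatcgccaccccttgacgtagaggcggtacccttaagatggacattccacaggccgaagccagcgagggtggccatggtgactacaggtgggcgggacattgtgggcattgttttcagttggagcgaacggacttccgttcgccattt
Psmb4: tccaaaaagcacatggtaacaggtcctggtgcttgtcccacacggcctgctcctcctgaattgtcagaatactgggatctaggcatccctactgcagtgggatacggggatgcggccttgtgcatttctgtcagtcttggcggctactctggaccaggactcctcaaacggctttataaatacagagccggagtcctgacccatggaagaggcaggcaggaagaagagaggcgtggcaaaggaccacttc
Psmd12: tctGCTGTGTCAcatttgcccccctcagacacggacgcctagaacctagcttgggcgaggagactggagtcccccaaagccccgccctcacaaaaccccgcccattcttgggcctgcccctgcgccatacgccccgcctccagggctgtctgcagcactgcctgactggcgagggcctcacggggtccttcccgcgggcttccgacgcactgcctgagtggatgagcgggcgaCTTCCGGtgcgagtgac
Psmc1: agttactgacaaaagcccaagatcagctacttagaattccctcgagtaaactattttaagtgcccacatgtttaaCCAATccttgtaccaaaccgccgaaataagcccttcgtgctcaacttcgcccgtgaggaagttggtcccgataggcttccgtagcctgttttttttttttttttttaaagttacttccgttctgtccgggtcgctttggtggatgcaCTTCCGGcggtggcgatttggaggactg
The motifs were TGACNNNGC (bound by NRF1/NFE2L1 and related factors), CCGGAAG (ETS factors), CCAAT (NF-Y) and the palindromic motif of nuclear respiratory factor, on both strands and counted independently of each other. Psmd12 holds TGACNNNGC on the reverse strand, beginning at base −247 from the start site, and CCGGAAG on the reverse strand at −17. Psmc1 holds CCAAT at −175 and CCGGAAG, again reversed, at −28, and none of the 4 motifs was found in the windows of Psmd8 and Psmb4.

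RefSeq gave a promoter window, from 250 bases before to 50 bases after a start site, for 42 of the 50 members. CCGGAAG was found in 15 of the 42 (35.7%), compared with 8.86% of all 32851 windows and 22.1% of the 8267 tested genes with a window. Its carriers were Psma6, Psmc1, Psmc2, Psmc3ip, Psmc6, Psmd2, Psmd4, Psmd6, Psmd11, Psmd12, Psmd13, Psme3, Psme4, Psmg1 and Psmg3. Among them Psmc1, Psmc3ip, Psmd12, Psmd13, Psme3 and Psme4 fell and Psmd4 rose. Over all tested genes 9.30% fell and 10.4% rose. Psmc3ip, Psmd12, Psme3 and Psme4 lie on chromosome 11, where 31.1% fell, and Psmd4 on chromosome 3, where 26.2% rose. A link between motifs and calls was not tested. The motif of nuclear respiratory factor was found in 7 (16.7%, beside 4.60% of all windows and 12.7% of tested genes) and TGACNNNGC in 6 (14.3%, beside 12.4% and 17.0%). No carrier of the motif of nuclear respiratory factor was called. The 6 with TGACNNNGC were Psmb5, Psmb6, Psmc6, Psmd9, Psmd12 and Psme4, of which Psmb6, Psmd12 and Psme4, all on chromosome 11, fell. Of all tested genes on that chromosome 31.1% fell. CCAAT was found in 15 (35.7%, beside 37.4% and 44.4%), among which Psmb3, Psmc1, Psmc3ip and Psme3 fell and Psmd4 rose. Psmb3, Psmc3ip and Psme3 lie on chromosome 11 and Psmd4 on chromosome 3. The motifs describe letters in these windows and not binding.

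Several chromosomes were shifted as a whole between KO and WT, so the members were read against the other genes of their chromosome. The median log2 fold change of tested genes other than the members was 0.48 on chromosome 3, 0.92 on chromosome 6, 0.52 on chromosome 8 and −0.48 on chromosome 11, and between −0.16 and −0.00 on each other chromosome. These shifts carry through to the calls: 26.2% of all tested genes were higher on chromosome 3, 56.2% on chromosome 6 and 29.4% on chromosome 8, and 31.1% were lower on chromosome 11. No member lies on chromosome 6. Of the 3 members on chromosome 3, 2 rose, and neither of the 2 on chromosome 8 was called. All 10 members on chromosome 11 had a value under 0, 9 of them without overlap between the groups, and 6 fell. Of all 870 tested genes of that chromosome 81.7% lay under 0, and in 524 KO lay below WT without overlap. On all other chromosomes 1 of 32 tested members rose and 3 fell, 12.5% beside 14.1% of all genes there. Their median was −0.22 and 26 of the 32 lay under 0, whereas all genes of those chromosomes had a median of −0.05 with 54.3% under 0.

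**Figure D2:**
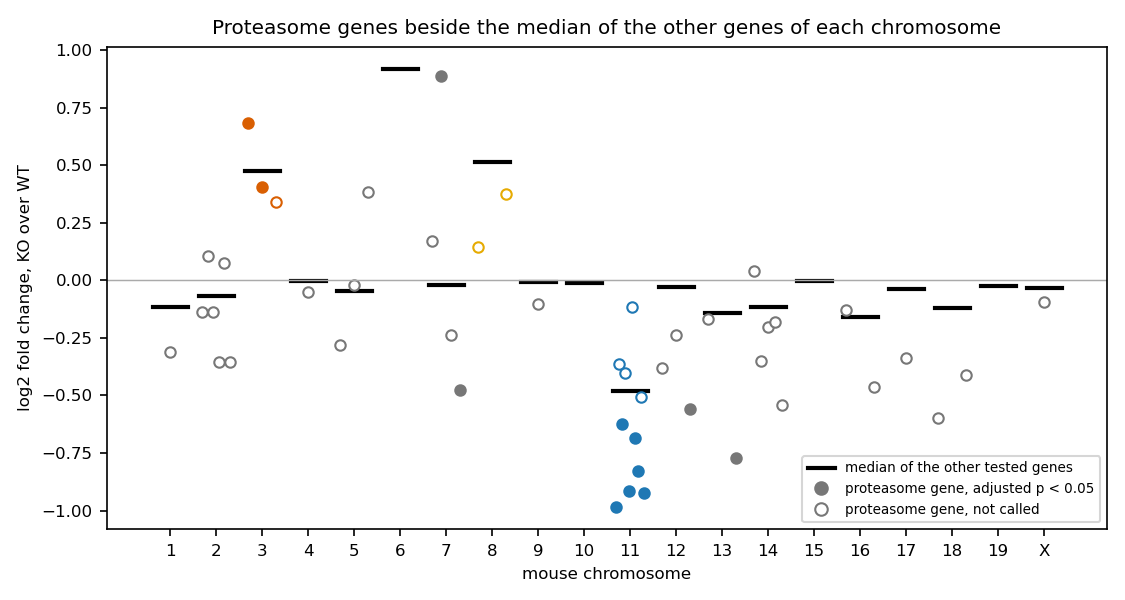
Log2 fold change of KO over WT (y axis) of each tested proteasome gene by chromosome (x axis, points, filled where called), with the median of the other tested genes as a bar. On chromosomes 3, 8 and 11 the points lie on the same side of 0 as the bars, and Psmd8 on chromosome 7 stands at 0.89 beside a bar at −0.02.

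A further fit centred each chromosome by an offset equal to its median, taken without the members. It called 13.0% of all genes, 6.25% higher and 6.71% lower. After centring, 1 member was higher (Psmd8) and 4 were lower (Psmc1, Psmd13, Psmd12 and Psmb3). The median of the members was then −0.14, and 35 of 47 lay under 0, compared with 50.2% of all genes. The 4 lower centred calls depended on single libraries: without KO replicate 1 no member was lower, without KO replicate 2 the 1 lower member was Psmg4, and Psmd13 was lost without WT replicate 1 and Psmd12 without WT replicate 2. Psmd8 was the member called in each of the 4 fits that left out a library.

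The alpha rings close the core and open for substrates. None of the 8 alpha genes was called, and their median log2 fold change was −0.24. Psma7, an alpha subunit, was at 2071 and 2306 CPM in KO and at 2815 and 2776 CPM in WT. Both KO libraries lay below WT, yet the log2 fold change of −0.35 (SE 0.14) did not pass (edgeR adjusted p = 0.0638), while limma-voom gave an adjusted p of 0.00823. KO also lay below WT without overlap for Psma1 (−0.24), Psma6 (−0.38) and Psma8 (−0.60, SE 0.47), a testis-specific form of the subunit Psma7 that had 11.5 to 21.5 CPM. Psma2, Psma3 and Psma4 overlapped between the groups, with log2 values of −0.17, −0.24 and −0.10. Psma5, the alpha gene on chromosome 3, was at 334 CPM in both KO libraries and at 260.1 and 268 CPM in WT. Its log2 fold change of 0.34 missed the threshold (edgeR adjusted p = 0.118) and was −0.14 after centring, so its sign changed.

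The beta rings hold the catalytic subunits Psmb5, Psmb6 and Psmb7, which cut after different residues, and 4 structural subunits. Of these 7 genes 1 rose and 2 fell. Psmb3 (chromosome 11, 97703434 to 97713500), a structural subunit, was at 492 and 532 CPM in KO and at 996 and 933 CPM in WT. The groups were far apart, at −0.91 on the log2 scale (SE 0.14, edgeR adjusted p = 1.75e-06), and it also fell after centring, by 0.43 on the log2 scale (adjusted p = 0.0339). Psmb6 (chromosome 11, 70525324 to 70527858), the caspase-like catalytic subunit, was at 621 and 646 CPM in KO and at 1003 and 951 CPM in WT. It fell by 0.63 on the log2 scale (SE 0.14, edgeR adjusted p = 0.000728), but by 0.14 after centring (adjusted p = 0.585), and the adjusted p was 0.0683 without KO replicate 1. Psmb4 (chromosome 3, 94884324 to 94886958), a structural subunit, was at 476 and 498 CPM in KO and at 311 and 295 CPM in WT. It rose by 0.68 (SE 0.15, edgeR adjusted p = 0.000552), and the centred value was 0.20 (adjusted p = 0.43). The other catalytic subunits were not called: Psmb5, the chymotrypsin-like one, was at 32.1 and 26.7 CPM in KO and at 42.6 and 23.6 CPM in WT. Psmb7, the trypsin-like one, was at 81.8 and 47.1 CPM in KO and at 54.4 and 67.8 CPM in WT. Both overlapped between the groups, at log2 values of −0.20 (SE 0.33) and 0.11 (SE 0.25), so the 3 catalytic genes gave 1 call. Psmb1 had no overlap, with 532 and 528 CPM in KO and 780.3 and 552 CPM in WT. Its log2 value of −0.34 missed the threshold (edgeR adjusted p = 0.114). It became −0.56 without WT replicate 2 (adjusted p = 0.000597) and −0.041 without WT replicate 1 (adjusted p = 0.901). Psmb2 was close to equal at −0.05 (SE 0.16). RefSeq lists 6 pseudogenes named for Psma5, Psmb5, Psmb6 and Psmb7, and the counting of shared reads was not given in the sources used here. Levels of these 4 genes are therefore uncertain.

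The inducible beta subunits replace the catalytic ones in the immunoproteasome, which favours peptides for antigen presentation, and Psmb11 does so in the thymus. These genes had few counts, and a count of 0 allows up to 3. Psmb8 had 0 counts in 3 libraries and 3 counts in WT replicate 2, Psmb9 had 4, 0, 4 and 0 counts and Psmb11 had 1, 5, 3 and 0 counts in KO replicates 1 and 2 and WT replicates 1 and 2. All 3 were under the filter on low counts. Psmb10, on chromosome 8, was the inducible subunit with measurable counts, at 41.1 and 47.1 CPM in KO and at 43.0 and 35.8 CPM in WT. The groups overlapped, and its log2 fold change was 0.14 (SE 0.29, edgeR adjusted p = 0.792) and −0.37 after centring (adjusted p = 0.455).

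The ATPase ring of the cap unfolds substrates and threads them into the core. Of its 6 genes 1 fell, and KO lay below WT without overlap in 5, with a median of −0.35. Over all tested genes KO lay below WT without overlap in 28.8%, and Psmc5, one of the 5, lies on the shifted chromosome 11. Psmc1 (chromosome 12, 100110202 to 100123364) was at 533 and 584 CPM in KO and at 827 and 815 CPM in WT. It fell by 0.56 (SE 0.14, edgeR adjusted p = 0.00313), and by 0.53 after centring (adjusted p = 0.00744). The adjusted p was 0.15 without KO replicate 1 and 0.0522 without KO replicate 2. Psmc2, Psmc3 and Psmc6 had log2 values of −0.28, −0.35 and −0.35 with adjusted p of 0.216, 0.0763 and 0.118 (edgeR). Psmc5, on chromosome 11, was at 94.2 and 109 CPM in KO and at 171 and 114 CPM in WT, for a log2 value of −0.51 (SE 0.20, edgeR adjusted p = 0.0617). This value was −0.15 without WT replicate 1 and −0.75 without WT replicate 2 (edgeR adjusted p = 0.00512). Psmc4 was the ATPase gene with KO above WT, at 205 and 227 CPM beside 191 and 192 CPM (log2 0.17, SE 0.17, edgeR adjusted p = 0.531).

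The base of the cap also holds the scaffold subunits Psmd1 and Psmd2 and the ubiquitin receptor Psmd4. Psmd4 (chromosome 3, 95032688 to 95042614) was at 727 and 689.6 CPM in KO and at 585 and 484 CPM in WT. It passed narrowly, at 0.40 on the log2 scale (SE 0.15, edgeR adjusted p = 0.0411), and this turned to −0.073 after centring (adjusted p = 0.824). The adjusted p was 0.304 without KO replicate 1, 0.19 without KO replicate 2 and 0.155 without WT replicate 2, and DESeq2 gave 0.0723. Psmd1 was at 511 and 554 CPM in KO and at 669 and 649 CPM in WT, without overlap but not called (log2 −0.31, SE 0.14, edgeR adjusted p = 0.13). Psmd2 overlapped between the groups at a log2 value of −0.13 (SE 0.15).

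The lid, with the deubiquitinase Psmd14, held both the highest member and one of the lowest: 1 of its 8 genes rose and 2 fell. Psmd8 (chromosome 7, 29174187 to 29180673), a structural lid subunit, was at 251 and 296 CPM in KO and at 145 and 149 CPM in WT. Both KO libraries stood well above WT, at 0.89 on the log2 scale (SE 0.17, edgeR adjusted p = 5.64e-05) and a centred value of 0.91 (adjusted p = 8.11e-05). It kept its call without each library in turn, at 0.77 to 1.00. Of the 4 other tested genes starting within 100 kb, Rasgrp4, Yif1b and Spint2 were at 0.43, 0.22 and 0.18 and not called, and 2200002D01Rik rose by 2.19 (SE 0.50, edgeR adjusted p = 0.00085). The 46 tested genes within 1 Mb that are no members had a median of 0.06.

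Psmd12 (chromosome 11, 107479528 to 107498036), also a structural lid subunit, was at 279.9 and 289 CPM in KO and at 538 and 539 CPM in WT. The libraries of each group nearly coincided, and the gene fell by 0.92 (SE 0.15, edgeR adjusted p = 3.7e-06) and by 0.44 after centring (adjusted p = 0.0396). Psmd13 (chromosome 7, 140882394 to 140898642) was at 279.9 and 283 CPM in KO and at 412 and 371 CPM in WT. It fell by 0.48 (SE 0.15, edgeR adjusted p = 0.0197) and by 0.46 after centring (adjusted p = 0.0353). Its adjusted p was 0.179 without KO replicate 1, 0.162 without KO replicate 2 and 0.114 without WT replicate 1. The lid members on shifted chromosomes that were not called were Psmd11 and Psmd3 on chromosome 11 and Psmd7 on chromosome 8. Psmd11 was at 289.6 and 284 CPM in KO and at 403 and 354 CPM in WT (log2 −0.40, SE 0.15, edgeR adjusted p = 0.0541; 0.08 after centring). Psmd3 overlapped, at 156 and 193 CPM in KO and 205 and 171 CPM in WT, and its log2 value of −0.12 lay above the median of its chromosome. Psmd7 was at 631 and 722 CPM in KO and at 506 and 537 CPM in WT (log2 0.37, SE 0.15, edgeR adjusted p = 0.0603; −0.14 after centring). Psmd6 and Psmd14 overlapped between the groups, at 0.04 (SE 0.18) and −0.14 (SE 0.18).

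**Figure D3:**
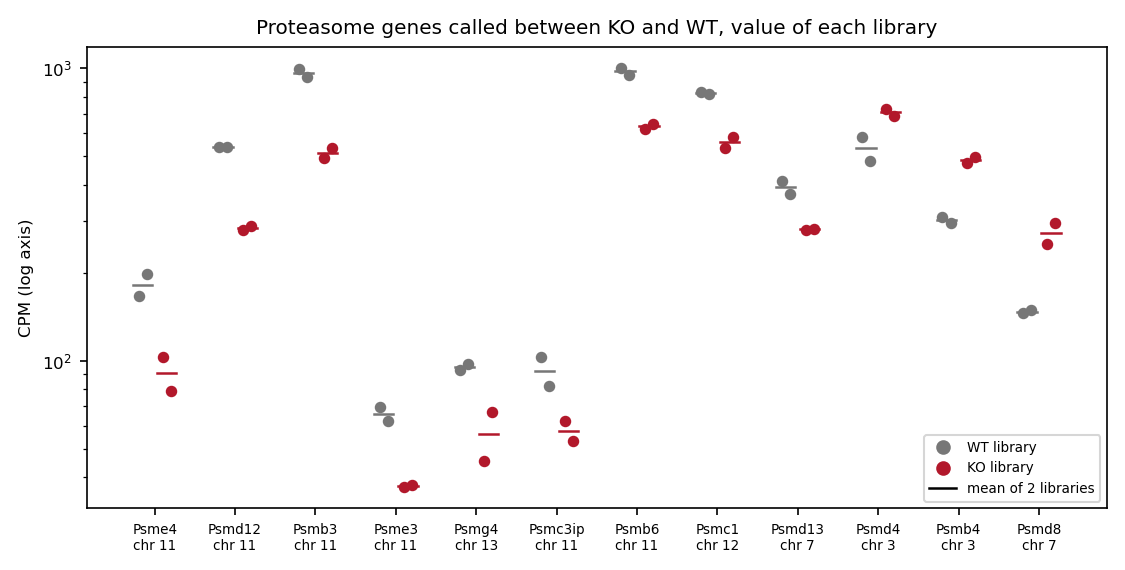
CPM of each library (points, log axis) for the 12 called genes, ordered by fold change, with the mean of 2 libraries as a line. WT and KO points do not overlap in any of the 12, and Psmd8 shows KO at 251 and 296 above WT at 145 and 149.

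Core and cap were also compared as sums. The 15 alpha and beta genes other than the inducible ones held 0.654% and 0.652% of all counts in KO and 0.859% and 0.814% in WT, a ratio of KO to WT of 0.781. The 17 cap genes held 0.562% and 0.572% in KO and 0.680% and 0.645% in WT, a ratio of 0.855. Both sums were lower in each KO library than in each WT library. As shares of the counts outside chromosomes 3, 6, 8 and 11, the 11 core genes there held 0.639% and 0.627% in KO and 0.792% and 0.741% in WT (ratio 0.826). The 11 cap genes there held 0.478% and 0.480% in KO and 0.578% and 0.553% in WT (ratio 0.847). Psma7 weighs heavily in the sum of these 11 core genes, with 6001 of 13726 and 4407 of 9037 counts in KO. In WT it had 6678 of 14256 and 3643 of 7257 counts. The sums of core and cap are given as values and were not tested. Gene by gene, the core gave 1 higher and 2 lower of 15 and the cap 2 higher and 3 lower of 17. Off the shifted chromosomes the core gave none of 11 and the cap gave Psmd8 higher and Psmc1 and Psmd13 lower of 11. Over all tested genes 19.7% were called, and 14.1% of those off the shifted chromosomes. A difference between core and cap in the number of calls was not tested.

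Assembly chaperones build the core (Psmg1 to Psmg4) and the base of the cap (Psmd5, Psmd9 and Psmd10). Psmg4 (chromosome 13, 34162964 to 34178172) was at 45.6 and 67.0 CPM in KO and at 93.2 and 97.5 CPM in WT. It fell by 0.77 (SE 0.23, edgeR adjusted p = 0.0115), with a centred value of −0.63 (adjusted p = 0.0579). Without KO replicate 1, its lower library, the value was −0.51 (adjusted p = 0.305), and DESeq2 gave 0.0744. Psmg1 and Psmg2 had KO below WT without overlap, at −0.46 (SE 0.21) and −0.41 (SE 0.26), and were not called. Psmg3 overlapped at 0.38 (SE 0.33). All 3 chaperones of the cap base overlapped between the groups, at −0.14 for Psmd5, −0.02 for Psmd9 and −0.09 for Psmd10.

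The alternative activators Psme1 to Psme4 open the core without ATP, and Psmf1 is an inhibitor of the core. Of these 6 genes, the related Psme2b included, 2 fell, both on chromosome 11. Psme4 (30771775 to 30881150), a large nuclear activator, was at 103 and 79.0 CPM in KO and at 167 and 198 CPM in WT. It fell by 0.99 (SE 0.19, edgeR adjusted p = 7.43e-05), the lowest value of all members, and its centred value was −0.50 (adjusted p = 0.0674). Psme3 (101316213 to 101323537), the nuclear activator known for degrading proteins without ubiquitin, was at 36.9 and 37.7 CPM in KO and at 69.6 and 62.5 CPM in WT. It fell by 0.83 (SE 0.26, edgeR adjusted p = 0.0178) and by 0.35 after centring (adjusted p = 0.442). The adjusted p rose to 0.116 without KO replicate 1, 0.0901 without KO replicate 2 and 0.139 without WT replicate 1, and DESeq2 gave 0.0822. The interferon-inducible pair Psme1 and Psme2 was at −0.18 (SE 0.22) and −0.54 (SE 0.25), and Psmf1 at 0.08 (SE 0.28). Psme2b, a near copy of Psme2 on chromosome 11, was at −0.36 (SE 0.32). Reads of Psme2 and Psme2b may be shared, and Psme4 overlaps Erlec1, Psme1 overlaps Emc9, Psmf1 overlaps Tmem74b and Psme2b overlaps 9930111J21Rik1 in RefSeq. Whether counting used strand was not given in the sources used here.

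Psmc3ip (chromosome 11, 101092141 to 101095435) matched the name rule only. It was at 62.1 and 53.4 CPM in KO and at 103 and 82.3 CPM in WT. It fell by 0.68 (SE 0.23, edgeR adjusted p = 0.024) and by 0.20 after centring (adjusted p = 0.642). The adjusted p was 0.0755 without KO replicate 1, 0.209 without KO replicate 2 and 0.282 without WT replicate 1, and DESeq2 gave 0.11. The gene overlaps Mlx.

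The RCOR2 peaks were then set beside the same genes. A peak summit within 1 kb of either end of the gene was found for 31 of the 50 members (62%), with 42 peaks in all: 21 genes had 1, 9 had 2 and Psmd13 had 3. Of the 47 tested members 30 had one (63.8%), compared with 67.3% of all tested genes and 72.5% of the tested genes between the lower and upper quartile of the members' level. The list holds 53366 peaks on chromosomes. The fold enrichment and −log10 q are the authors' values. The fold of the member peaks ran from 2.83 to 7.13 with a median of 4.38, equal to the median of the list, and their median −log10 q was 4.46 beside 5.08.

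The strongest member peak lay at Psmd7 (chromosome 8, 107588513 to 107589031, fold 7.13, −log10 q 13.5), 431 bp beyond its gene interval. The strongest at Psmb4 (chromosome 3, 94886722 to 94886959, fold 6.67, −log10 q 11.6) had its summit 129 bp inside the gene. At Psmd12 the summit of the peak from 107479425 to 107479632 (fold 6.21, −log10 q 9.85) lay 22 bp before the start site, inside the sequence printed above. Psmc1 had a peak from 100110157 to 100110382 with its summit 72 bp inside the gene (fold 5.07), just past the printed bases, and no summit lay within 1 kb of Psmd8. Peaks of high fold were also found at Psmb5 (6.44) and Psmd3 (6.39). All 6 ATPase genes had a peak, as did 4 of 8 alpha genes, 4 of 7 beta genes, 2 of 3 scaffold and receptor genes, 5 of 8 lid genes, 3 of 4 core chaperones, 2 of 3 cap chaperones and 4 of 6 activators and inhibitor. Of the inducible subunits Psmb9 had one, and its summit lay nearer to Tap1.

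Of the 42 peaks, 34 lay at members whose strand RefSeq gave, and all 34 were at the 5′ end. Over all tested genes with a strand, 7.54% of such peaks were at the 3′ end. Psma3 was left out, as its summits lie at −6152 and −5525 bp from its listed start site, which is inside the gene interval. The other 32 summits were placed: 19 before and 13 after the start site, with a median of −37 bp and a range of −972 to 507 bp. Of these, 19 were within 250 bp, among them that of Psmd2. Its start site also lies inside the gene interval, with the summit 196 bp from the start site and 726 bp from the gene end. Another gene's end lay within 1 kb of 16 of the 42 summits. At Psmb3 the summit was 972 bp from the gene and 28 bp from Pcgf2, and at Psmc5 it was 52 bp from the gene and 49 bp from Ftsj3.

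**Figure D4:**
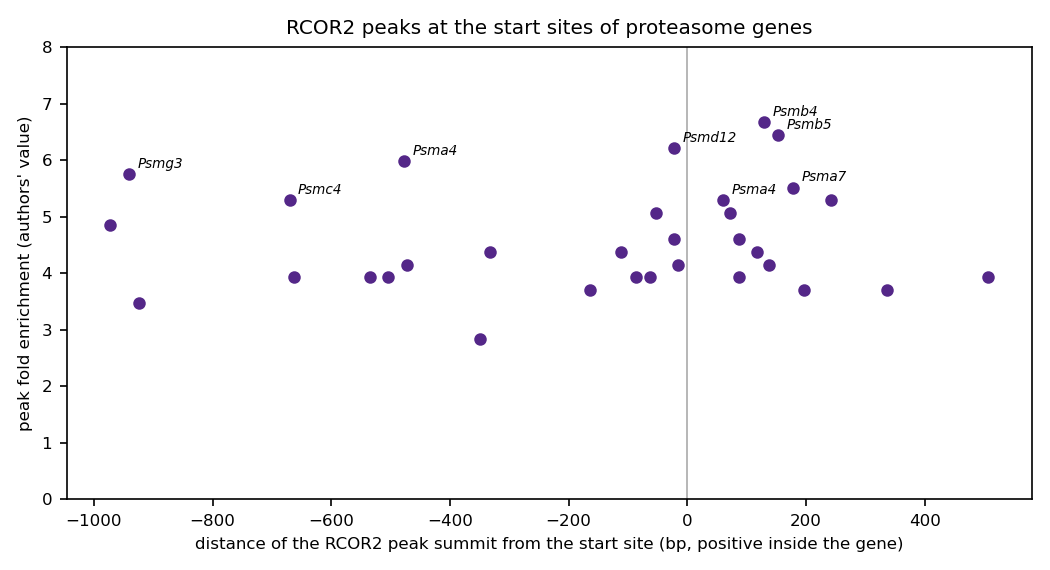
Fold enrichment of RCOR2 peaks (y axis, the authors' value) against the distance of the summit from the start site (x axis, bp, positive inside the gene) for the 32 placed member peaks. Names mark the strongest peaks, and 19 of the points lie within 250 bp of the start site.

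Members with and without a peak were compared in expression. Of the 30 tested members with a peak 1 rose and 7 fell, with a median log2 fold change of −0.32, and of the 17 without 2 rose and 2 fell, with a median of −0.14. Over all tested genes 10.4% rose and 9.30% fell. Of the 7, Psmb3, Psmd12, Psme3 and Psme4 lie on chromosome 11, where 31.1% of tested genes fell. Both members that fell without a peak, Psmb6 and Psmc3ip, lie there too. Off the shifted chromosomes the medians were −0.29 for 22 members with a peak and −0.12 for 10 without. Over all tested genes there the medians were −0.06 with a peak and −0.04 without. The difference between the members was not tested, since members are not replicates.

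Other genes of the pathway were read from lists of 39 genes, of which 30 were tested, and 6 rose and 7 fell. That is 43.3% of the tested partner genes, beside 19.7% of all genes tested. After centring, 4 partner genes were higher and 3 lower. Among 11 tested proteasome components outside the Psm names, Sem1, a small lid subunit on chromosome 6, was at 1403 and 1346 CPM in KO and at 628 and 527 CPM in WT. It rose by 1.25 (SE 0.14, edgeR adjusted p = 8.98e-10), and the centred value was 0.33 (adjusted p = 0.123). Uchl5, a deubiquitinase of the cap, was at 96.0 and 128 CPM in KO and at 166 and 197 CPM in WT. It fell by 0.70 (SE 0.19, edgeR adjusted p = 0.00429), with an adjusted p of 0.213 without KO replicate 1. Akirin2, which brings proteasomes into the nucleus, was at 13.1 and 10.5 CPM in KO and at 28.2 and 29.0 CPM in WT. It fell by 1.26 (SE 0.40, edgeR adjusted p = 0.02), a call that was lost without KO replicate 1 (0.0628), without KO replicate 2 (0.145), without WT replicate 1 (0.0703) and with DESeq2 (0.0867). The assembly factor Pomp (0.09), the ubiquitin receptor Adrm1 (0.20) and the deubiquitinase Usp14 (−0.26) were not called.

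NFE2L1, also called NRF1, is the transcription factor that raises proteasome genes when proteasome activity falls, and of 6 tested genes of its axis 3 fell. Over all tested genes 9.30% fell, and on chromosome 11, where Nfe2l1 and Mafg lie, 31.1% fell. Nfe2l1, on chromosome 11, was at 215 and 232 CPM in KO and at 349 and 334 CPM in WT. It fell by 0.62 (SE 0.16, edgeR adjusted p = 0.00272), by 0.13 after centring (adjusted p = 0.661), and its adjusted p was 0.0994 without KO replicate 1. Vcp, the unfoldase that extracts NFE2L1 from the membrane, fell by 0.42 (SE 0.14, edgeR adjusted p = 0.0286; 0.24 and 0.227 without KO replicates 1 and 2). Mafg, a small partner protein on chromosome 11, fell by 0.61 (SE 0.22, edgeR adjusted p = 0.037; 0.424 without KO replicate 2 and 0.482 without WT replicate 1), and by 0.12 after centring (adjusted p = 0.791). Nfe2l2, the related stress factor, was at −0.30 (SE 0.18) and not called.

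Genes for ubiquitin and for the shuttles that carry tagged proteins to the proteasome were read as well. Ubqln4, a shuttle factor on chromosome 3, rose by 0.87 (SE 0.23, edgeR adjusted p = 0.00435; 0.0673 without KO replicate 1), with 0.40 after centring (adjusted p = 0.291). Ubb, the polyubiquitin gene on chromosome 11, fell by 0.37 (SE 0.14, edgeR adjusted p = 0.0499), but its centred value was 0.11 and it lost its call without KO replicate 1 (0.329), KO replicate 2 (0.346) or WT replicate 1 (0.0557).

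Genes that carry proteasome peptides to the cell surface were in part under the filter on low counts, among them Tap1, Tap2, Erap1 and Nlrc5. B2m, the light chain of MHC class I, was at 84.9 and 107 CPM in KO and at 66.6 and 40.4 CPM in WT. It rose by 0.80 (SE 0.24, edgeR adjusted p = 0.00996), with an adjusted p of 0.173 without KO replicate 2, 0.172 without WT replicate 2 and 0.0699 with DESeq2. Tapbp, a peptide loading factor, was at 45.9 and 46.0 CPM in KO and at 15.2 and 34.3 CPM in WT. It rose by 0.96 (SE 0.33, edgeR adjusted p = 0.0306) and was not called without KO replicate 1 (0.126), KO replicate 2 (0.116) or WT replicate 1 (0.484, log2 0.44), or with DESeq2 (0.161). Irf1, an interferon response factor on chromosome 11, was at 5.87 and 11.0 CPM in KO and at 31.2 and 19.0 CPM in WT. It fell by 1.64 (SE 0.46, edgeR adjusted p = 0.00733), with 0.144 without KO replicate 1, 0.21 without WT replicate 1, 0.0554 with DESeq2 and a centred adjusted p of 0.0889.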

How the data were processed

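The authors deposited RNA-seq as a table of unnormalized read counts by gene symbol. Tools in the submitters' processing notes were MACS2 2.1.1.20160309, HOMER, bedtools 2.25.0, STAR 2.5.2b, Bowtie2 2.3.4.1, SAMtools 1.8, Trimmomatic 0.36, featureCounts and Subread, with GRCm38 and mm10. The use of strand, of molecular identifiers and of multi-mapping reads was not given in the sources used here. Per peak, the RCOR2 list gives a fold ratio and a −log10 q, as deposited by the authors, called on merged libraries. Of 25131 rows, 26 carry a date in place of a symbol (0.136% to 0.158% of counts) and were tested but not named. RefSeq (GRCm38.p6) placed 25027 rows, 24695 by symbol and 332 by synonym, and all 50 members.

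Counts were filtered with filterByExpr, scaled by TMM and fitted with edgeR 4.0.16 in R 4.3.3 (quasi-likelihood test, two-sided, no covariate, Benjamini-Hochberg over 10241 genes). The standard error (SE) is the fold change divided by the root of the F statistic. Replicates differed by more than sampling noise (chi-square over degrees of freedom 4.78 in WT, 4.22 in KO). Chromosomes with at least 100 tested genes were centred. Alternatives were DESeq2 1.42.0, limma-voom (limma 3.58.1), other scalings and filters, each library left out, a replicate block, chromosomes 3, 6, 8 and 11 left out, and other peak windows and thresholds. The fit was run on simulated counts with known fold changes. For the centring, a planted shift was given to the fit as its offset, so estimating the offset from the data was not tested. Values are named for called members, members on shifted chromosomes, catalytic and inducible subunits, members with a peak, members under the filter, members without overlap, and called partner genes with Nfe2l1, Nfe2l2, Pomp, Adrm1 and Usp14. Members and lists were chosen with earlier results of these data known. Some listed partner genes are counted but not reported here.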

Additional observations from a re-analysis of the deposited data

How the results depend on the processing

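The 3 higher and 9 lower members became 1 and 4 with chromosomes centred and 1 and 2 with chromosomes 3, 6, 8 and 11 left out. Lower members numbered 14 by library size alone and by limma-voom, and 3 to 15 over the fits without 1 library. Psmd4 turned to −0.073 and Ubb to 0.11 when centred. Calls over all genes (1062 higher, 952 lower) became 640 higher when centred, 470 and 480 with the 4 chromosomes left out, 650 and 506 by DESeq2, and 616 to 948 and 495 to 790 without 1 library. Partner genes (6 higher, 7 lower) numbered 3 to 5 higher and 1 to 7 lower without 1 library, 3 and 2 with the chromosomes left out, and 4 lower with no filter, 3 when centred and 3 by DESeq2. Lower members in the centred fit numbered 0 to 6 without 1 library. The median of the members was −0.33 to −0.14 without 1 library and −0.14 when centred. The ratio of the core sums was 0.826 outside the shifted chromosomes. Members with a peak numbered 17 at a −log10 q of at least 5 and 14 at a fold of at least 5. For single genes, 715 of 810 comparisons kept their side of the threshold, 33 of these with another sign and no call either way, 74 lost and 19 gained the call, and 2 reversed. The cause was not tested.

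The replicate numbers carry no stated pairing, and deviations of same-numbered libraries correlated at r = −0.0532 over 10241 genes. With the replicate number as a block, 2 members were higher and 9 lower, Psmd4 losing its call, and 1 was lower in the centred fit. Depth limits low genes: Psmb8, Psmb9 and Psmb11 did not reach the filter, and none was called with no filter.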
